A study of Homo sapiens with 9 samples.

Results

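The genes described here encode the cohesin complex, the proteins that load and hold it, and CTCF. They are the 10 genes SMC1A, SMC3, RAD21, STAG1, STAG2, NIPBL, MAU2, PDS5A, PDS5B and CTCF, taken as every guide row of the table whose target was one of these names. They had 40 of the 76441 targeting guides, 4 per gene, among 19114 genes. The screen was made in HEL cells, a human erythroleukemia line with mutated JAK2 that was given Cas9, and it asked which gene losses reduce growth when the JAK1/2 inhibitor ruxolitinib (RUX) is present. All cells carried Cas9 and the lentiviral Brunello knockout library and were kept in puromycin and blasticidin. Guide DNA was read in 1 library at day 0, in 4 libraries at day 12 under DMSO and in 4 libraries at day 12 under 200 nM RUX. The guide rows carried identifiers and no letters of the guides, so members are given by gene and identifier.

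Cohesin is a ring that entraps DNA. SMC1A and SMC3 are its hinged arms, RAD21 is the kleisin that closes the ring, and 1 of the paralogs STAG1 and STAG2 binds to RAD21. The NIPBL and MAU2 heterodimer loads cohesin onto chromatin, and PDS5A and PDS5B bind the loaded ring, where they take part both in its release and in its protection. The ring holds sister chromatids together until mitosis and extrudes loops of chromatin, which halt where the zinc finger protein CTCF is bound. The core ring is required for division in most cell types. In myeloid neoplasms STAG2, RAD21, SMC1A and SMC3 are recurrently mutated, and loss of STAG2 is known to be tolerated where STAG1 is intact.

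The unit of the results is a gene score on the natural log scale. The deposited value of a guide was its read count times 1 factor per library. Each library was scaled again to its non-targeting guides, the score of a guide was ln((value + 5)/(day 0 value + 5)), and the score of a gene was the mean over its guides with a day 0 value of at least 30. A score of 0 means that the guides kept their day 0 level relative to the control guides, and a negative score that they were depleted. A score below −0.5 is called a dependency here. The study used the same cut on its own scores, which came from another method with a copy number correction. A call here is therefore not the call of the study. Of the 40 guides, 38 passed the day 0 minimum. CTCF and PDS5A were each scored on 3 guides, since CTCF guide sg_28848 had 27 reads and PDS5A guide sg_32207 had 12 reads at day 0. The other 8 genes were scored on 4.

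The libraries held between 19631338 and 26611323 reads, and the median guide had 235 reads at day 0. DMSO replicate 3 stood apart: over control guides its scores varied with an SD of 0.46, while that SD was 0.26 to 0.30 elsewhere at day 12. At 100 reads a guide varied between replicates by 36.6% under DMSO and 34.7% under RUX (median coefficient of variation). Both day 12 conditions were set against the same single day 0 library, so their scores share its error, and that library was taken to vary like the others in the fit. The labels do not say whether replicates were separate cultures, so p-values measure the spread between these libraries, which may be technical.

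The median of the cohesin genes lay below that of all genes, further under RUX than under DMSO, and the group was not tested. The median score of the 10 members was −0.23 under RUX and −0.12 under DMSO, beside −0.097 and −0.092 over all 19112 scored genes. STAG2 was the 1 member below −0.5 under RUX and the 1 member below it under DMSO, where 4.66% and 4.47% of all genes were. No member passed limma's adjusted p of 0.05 against day 0, while 1.61% of all genes passed as lower under RUX and 1.18% under DMSO. At an unadjusted limma p under 0.05, STAG2 and MAU2 were lower under RUX, where 9.58% of all genes were, and STAG2, MAU2 and RAD21 were lower under DMSO, where 8.85% were. edgeR and DESeq2 on the reads summed per gene also passed 0 members. In the plot of scores by library, 7 of the 10 means lie below 0 under RUX and 8 under DMSO, close to the 71.9% and 70.2% of all genes that do.

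**Figure D1:**
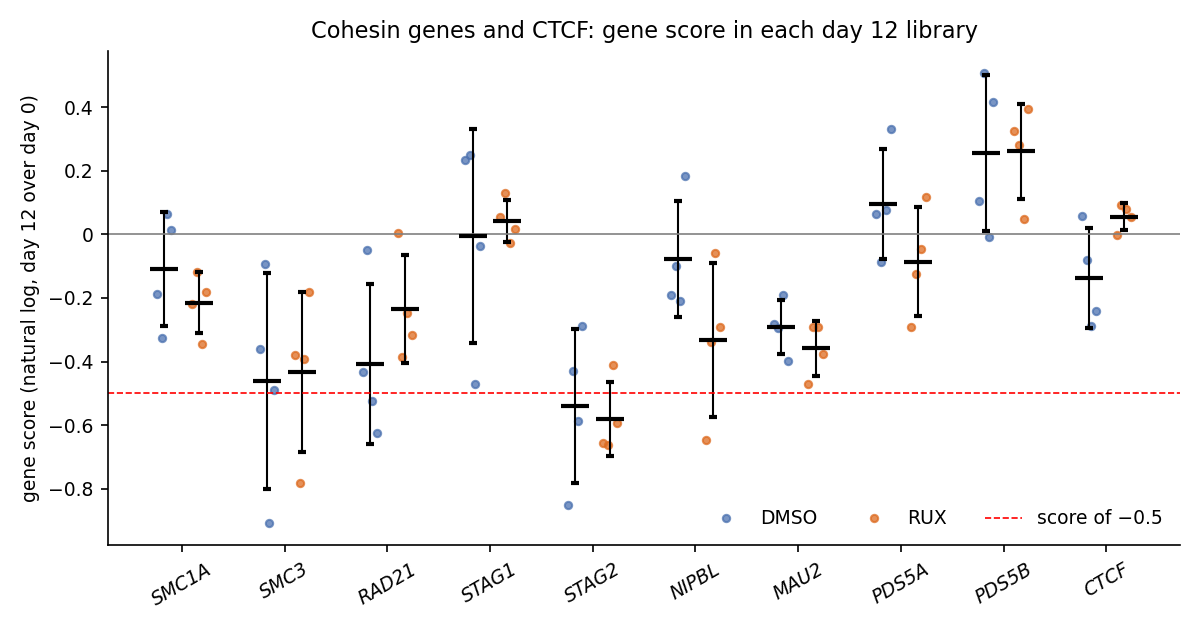
Gene score (y axis, natural log of day 12 over day 0) of the 10 genes (x axis) in each DMSO library (blue) and RUX library (orange); black bars are the mean and SD of 4 libraries and the dashed red line is −0.5. The STAG2 means, −0.54 under DMSO and −0.58 under RUX, are the 2 below the line, the PDS5B means of 0.25 and 0.26 are the highest, and DMSO and RUX points overlap for every gene.

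Among the subunits of the ring, SMC3 had the lowest mean, and none of the 3 genes passed limma's adjusted p. SMC3 (chromosome 10, 110567680 to 110606050, forward strand, GRCh38) scored −0.36, −0.09, −0.91 and −0.49 in the 4 DMSO libraries and −0.38, −0.78, −0.39 and −0.18 in the 4 RUX libraries. Every library was below 0, and 1 library of each condition was below −0.5. Under DMSO that was replicate 3, the library that stood apart over control guides. The means were −0.46 ± 0.34 under DMSO and −0.43 ± 0.25 under RUX (SD, n = 4 libraries; adjusted p = 0.60 and 0.64 from limma), and the 95% intervals reached up to 0.08 and 0.11.

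The SMC3 mean came from 4 guides that did not move together. Guide sg_23943, with 83 reads at day 0, was read 28, 58, 0 and 33 times under DMSO and 6, 0, 6 and 62 times under RUX, so it had at most 6 reads in 4 of the 8 libraries and 28 to 62 in the others. Its mean guide score was −1.33 ± 1.06 under DMSO and −1.84 ± 1.12 under RUX, the lowest of the 38 guides in both, and an exact 0 rests on the pseudocount. Guide sg_23941, with 55 reads at day 0, was read 64 to 118 times under DMSO and 115 to 156 times under RUX, and its guide score was 0.29 and 0.76. The remaining guides, sg_23942 and sg_23944, had scores between −0.46 and −0.30. Without sg_23943, an alternative added after the values were seen, the gene score of SMC3 was −0.17 under DMSO and 0.04 under RUX.

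RAD21 (chromosome 8, 116845930 to 116874780, reverse strand) scored −0.43, −0.05, −0.52 and −0.62 in the DMSO libraries and 0.00, −0.39, −0.25 and −0.32 in the RUX libraries. The means were −0.41 ± 0.25 and −0.24 ± 0.17 (adjusted p = 0.48 and 0.75 from limma), with 95% intervals, not adjusted over genes, from −0.80 to −0.02 and from −0.63 to 0.15. Its guides fell into pairs by value. Guides sg_15727 and sg_15728, with 116 and 153 reads at day 0, scored −0.62 and −0.93 under DMSO and −0.70 and −0.40 under RUX. Guides sg_15725 and sg_15726, with 323 and 474 reads, scored 0.01 and −0.09 under DMSO and 0.25 and −0.09 under RUX. SMC1A (chromosome X, 53374149 to 53422728, reverse strand) was closest to 0 of the ring genes, at −0.11 ± 0.18 under DMSO and −0.22 ± 0.10 under RUX, and all 4 RUX libraries lay between −0.34 and −0.12. Its 4 guides had 161 to 631 reads at day 0, and none was below −0.5 in either condition.

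The STAG paralogs differed from each other. STAG2 (chromosome X, 123960210 to 124422660, forward strand) scored −0.85, −0.43, −0.59 and −0.29 in the DMSO libraries and −0.66, −0.66, −0.41 and −0.59 in the RUX libraries. All 8 values were below 0, and the 2 conditions overlapped. The means, −0.54 ± 0.24 under DMSO and −0.58 ± 0.12 under RUX, correspond to 58.4% and 55.9% of the day 0 level of its guides, and STAG2 ranked 709 and 613 from the lowest of the 19112 genes. With adjusted p = 0.27 and 0.18 from limma and 95% intervals from −0.95 to −0.13 and from −0.99 to −0.17, STAG2 did not pass over all genes. Over the alternative settings its score stayed between −0.64 and −0.42 with RUX and between −0.62 and −0.43 with DMSO, so that the −0.5 line ran through its range. Its 20 chromosomal neighbours had median scores of −0.09 (RUX) and −0.08 (DMSO), and with these subtracted STAG2 was at −0.49 and −0.46.

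STAG1 (chromosome 3, 136336240 to 136752400, reverse strand) scored 0.24, 0.25, −0.47 and −0.04 in the DMSO libraries and 0.05, 0.13, −0.03 and 0.02 in the RUX libraries. The value of −0.47 was that of DMSO replicate 3, the library that stood apart. The means were −0.01 ± 0.34 and 0.04 ± 0.07, which left 99.4% and 104% of the day 0 level, with 95% intervals from −0.35 to 0.34 and from −0.30 to 0.39.

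STAG2 minus STAG1, taken within each library so that the library scaling cancels, was −1.09, −0.68, −0.12 and −0.25 under DMSO and −0.71, −0.79, −0.39 and −0.61 under RUX. It was negative in 8 of 8 libraries, with a mean of −0.58 ± 0.31, and the value nearest 0 was that of DMSO replicate 3. An exact two-sided sign-flip test gave p = 0.0078, the smallest it can give with 8 libraries, and 0.031 after Benjamini-Hochberg adjustment over the 4 tests made on paralog pairs. The difference was −0.53 under DMSO and −0.62 under RUX, and an exact permutation test between the conditions gave p = 0.71 (smallest possible 0.029). Over the 20 settings in which it was recomputed, the mean ran from −0.67 to −0.39 and the exact p from 0.0078 to 0.031. Most of these settings could not turn its direction, since scaling cancels, guides of other genes do not enter and every library is negative. The test covers the spread between day 12 libraries, and an error of the shared day 0 library would move all 8 differences alike.

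The guides of the pair did not overlap either, and none was near the day 0 minimum. The 4 STAG2 guides had 180 to 320 reads at day 0 and guide scores of −1.07 to −0.29 with RUX and −0.83 to −0.36 with DMSO, and 30 of their 32 guide-by-library values were below 0. The 4 STAG1 guides had 163 to 409 reads and guide scores from −0.15 to 0.16 and from −0.14 to 0.21, with 13 of 32 values below 0. The values of a guide share its day 0 value, so these counts are not independent. Over all genes, 71.9% of mean gene scores were below 0 under RUX and 70.2% under DMSO. The share of guide-by-library values below 0 over all guides was not computed. The lowest STAG2 guide, sg_29019, had 294 reads at day 0, then 83, 191, 83 and 291 reads under DMSO and 63, 125, 199 and 77 under RUX. It was below its day 0 level in every library, but its reads in DMSO replicate 4 were close to that level. Without the guide farthest from the others, STAG2 was at −0.42 under RUX and −0.44 under DMSO.

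**Figure D2:**
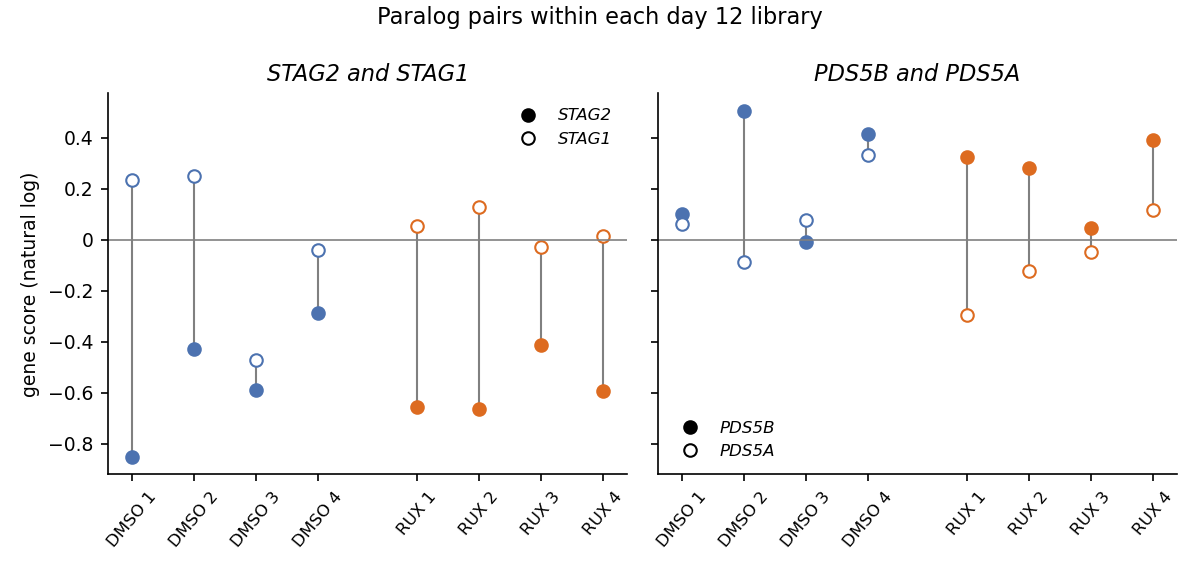
Gene score (y axis, natural log) of STAG2 (filled) and STAG1 (open) on the left and of PDS5B (filled) and PDS5A (open) on the right, joined within each of the 4 DMSO (blue) and 4 RUX (orange) libraries. STAG2 is below STAG1 in 8 of 8 libraries, by 0.12 in DMSO replicate 3 and by 1.09 in DMSO replicate 1; PDS5B is above PDS5A in 7 of 8.

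The genes of the loader were below 0 under RUX in all 4 libraries. MAU2 (chromosome 19, 19320829 to 19358754, forward strand), the smaller partner that stabilises NIPBL, scored −0.28, −0.29, −0.19 and −0.40 in the DMSO libraries and −0.47, −0.29, −0.29 and −0.38 in the RUX libraries. It was below 0 in 8 of 8 libraries and was among the least variable members, at −0.29 ± 0.09 under DMSO and −0.36 ± 0.09 under RUX. That left 74.7% and 69.9% of the day 0 level (adjusted p = 0.46 and 0.25 from limma), and it did not reach −0.5 in any library. Its 4 guides were deeply read, with 376 to 697 reads at day 0, and 28 of 32 guide-by-library values were below 0. These signs share the day 0 library. Of all genes, 71.9% had a mean score below 0 under RUX and 70.2% under DMSO. Matching shares for single libraries or guide-by-library values were not computed. Guide sg_32646 went from 697 reads at day 0 to 338, 469, 818 and 581 under DMSO and to 308, 338, 417 and 324 under RUX, and it had the lowest score of the 4 in both conditions, −0.40 and −0.77.

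NIPBL (chromosome 5, 36876769 to 37066413, forward strand), the larger subunit that activates the cohesin ATPase, scored −0.19, −0.10, −0.21 and 0.19 in the DMSO libraries and −0.65, −0.34, −0.06 and −0.29 in the RUX libraries. RUX replicate 3 lay within the DMSO values and the other 3 RUX libraries below all of them. The means were −0.08 ± 0.18 and −0.33 ± 0.24 (adjusted p = 0.94 and 0.67 from limma). Guide sg_33862, with 132 reads at day 0, was the lowest of its guides at −0.48 and −0.75, and sg_33859, with 160 reads, was the highest at 0.18 and 0.12.

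The PDS5 genes had the highest scores among the members under DMSO. For PDS5B the value rested on 1 guide, and for PDS5A its sign depended on the setting. PDS5B (chromosome 13, 32586452 to 32778019, forward strand) scored 0.10, 0.51, −0.01 and 0.42 in the DMSO libraries and 0.32, 0.28, 0.05 and 0.39 in the RUX libraries. The means of 0.25 ± 0.25 and 0.26 ± 0.15 put it at ranks 18660 and 18783 from the lowest of 19112 genes (adjusted p = 0.72 and 0.70 from limma). Guide sg_31572 had 51 reads at day 0, then 151, 199, 123 and 234 under DMSO and 213, 185, 203 and 123 under RUX. Its guide score was 1.03 and 1.11, the highest of the 38 guides, and it ranked 94 and 50 from the highest of 75434 targeting guides. The other 3 guides of PDS5B lay between −0.33 and 0.40, and without sg_31572, an alternative added after the values were seen, PDS5B was at −0.01 under DMSO and −0.02 under RUX.

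PDS5A (chromosome 4, 39822863 to 39977956, reverse strand) scored 0.06, −0.09, 0.08 and 0.33 in the DMSO libraries and −0.29, −0.12, −0.05 and 0.12 in the RUX libraries, on 3 guides. The means were 0.10 ± 0.17 and −0.09 ± 0.17. The RUX value changed sign with the guides used, to 0.16 without the day 0 filter, where guide sg_32207 (1.04 under DMSO and 0.89 under RUX) enters, and to 0.22 with the farthest guide left out. The DMSO value changed sign in 3 settings, to −0.05 with the median over guides and −0.02 with edgeR and with DESeq2. Guide sg_32209, with 339 reads at day 0, scored −0.34 and −0.70, while sg_32210, with 71 reads, scored 0.68 and 0.32. Guide sg_32208, with 92 reads, scored −0.05 and 0.12. PDS5B minus PDS5A was positive in 7 of 8 libraries, with a mean of 0.25 ± 0.26 (exact two-sided sign-flip p = 0.023, 0.047 after adjustment over the 4 tests). It did not hold without sg_31572, where the mean was −0.02 (exact p = 0.85), and with the farthest guide of each gene left out it was −0.28 (exact p = 0.047), the opposite direction. Between RUX and DMSO the PDS5B minus PDS5A difference moved by 0.19 (exact permutation p = 0.29, adjusted 0.38).

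CTCF (chromosome 16, 67562467 to 67639177, forward strand) scored 0.06, −0.08, −0.29 and −0.24 in the DMSO libraries and −0.00, 0.09, 0.08 and 0.05 in the RUX libraries. The means were −0.14 ± 0.16 and 0.06 ± 0.04 (adjusted p = 0.85 and 0.96 from limma), with 95% intervals from −0.47 to 0.19 and from −0.28 to 0.39. Of its 3 scored guides, sg_28849 and sg_28850, with 412 and 545 reads at day 0, scored −0.40 and −0.10 under DMSO and −0.33 and −0.05 under RUX. Guide sg_28847, with 48 reads, scored 0.09 and 0.55, and with a day 0 value of at least 100 required, the CTCF gene score under RUX was −0.19. The unscored guide sg_28848 was read 58, 16, 3 and 6 times under DMSO and 34, 63, 7 and 72 times under RUX from 27 reads at day 0.

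Over the 38 scored guides, 7 were below −0.5 under RUX and 4 under DMSO, where 11.9% and 12.2% of all targeting guides were. The 7 were 2 of STAG2 and 1 each of SMC3, RAD21, NIPBL, MAU2 and PDS5A; the 4 were 2 of RAD21 and 1 each of SMC3 and STAG2. Of the 990 control guides, 0.808% were below −0.5 under RUX and 3.03% under DMSO. The middle 95% of the control guides spanned −0.41 to 0.44 with RUX and −0.53 to 0.44 with DMSO, and 9 member guides lay below it under RUX and 4 under DMSO, where 17% and 10.9% of all targeting guides did. No member guide passed limma's adjusted p over all guides against day 0 under RUX, where 0.0994% of the guides passed, or under DMSO, where 0.00795% passed. At an unadjusted limma p under 0.05, in either direction, there were 5 under RUX and 2 under DMSO, where 5.61% and 5.4% of all targeting guides were. Both counts include the PDS5B guide sg_31572, which was above its day 0 level, at 1.11 under RUX and 1.03 under DMSO. In the plot of guide scores, the guides of SMC3, PDS5B and PDS5A spread most.

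**Figure D3:**
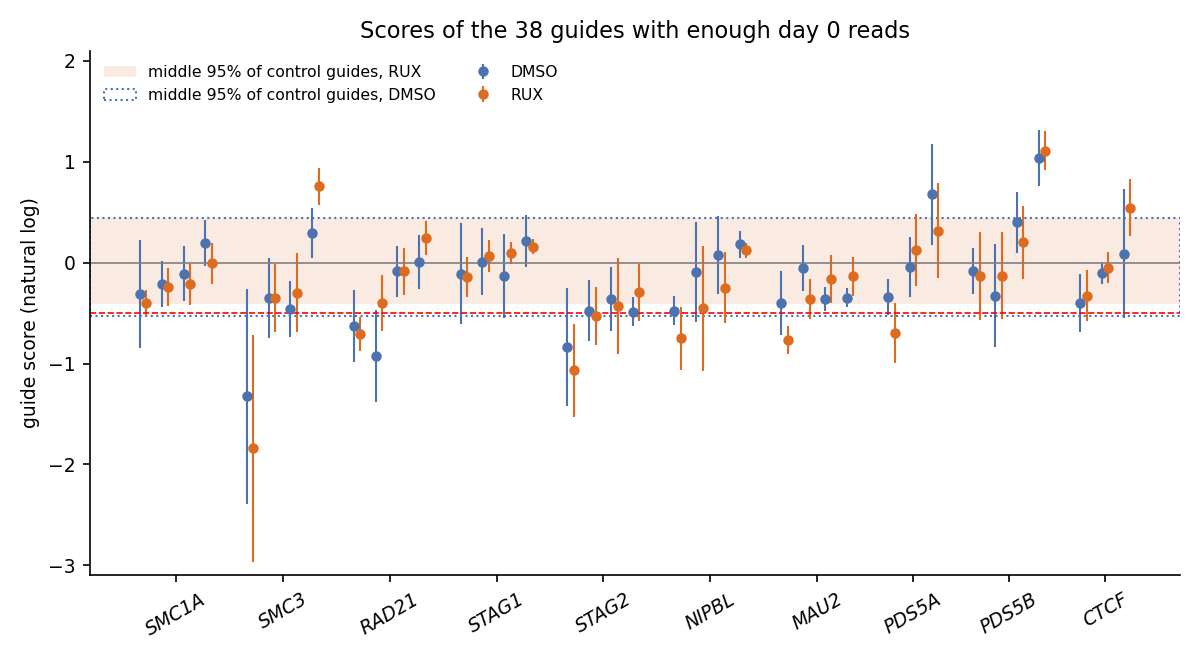
Guide score (y axis, natural log) of the 38 scored guides, grouped by gene along the x axis and ordered within a gene by the RUX value; points and bars are the mean and SD of 4 DMSO (blue) or 4 RUX (orange) libraries. The orange band and the dotted blue outline hold the middle 95% of the 990 control guides, and the dashed red line is −0.5. The lowest guide is that of SMC3 at −1.84 under RUX and the highest that of PDS5B at 1.11.

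The highest guide scores under RUX belonged to the guides with the fewest reads at day 0. The 3 scored member guides with 48, 51 and 55 reads at day 0, those of CTCF, PDS5B and SMC3, were the 3 above the control range under RUX, at 0.55, 1.11 and 0.76. Among all 2272 targeting guides with a day 0 value from 30 to 60, the median guide score was 0.17 under RUX and 0.03 under DMSO, and 1.19% scored above 1 in both conditions. From 60 to 150 that share was 0.0767%, and none of the 28336 guides from 150 to 300 and none of the 27885 guides from 300 upwards did so. The share below −1 in both conditions was also higher at low reads, 1.80% from 30 to 60 and 0.907% from 300 upwards. The SD of the guide scores under RUX was 0.53 from 30 to 60 and 0.30 from 300 upwards. With a day 0 value of at least 100 required, which leaves out both SMC3 guides under 100 reads, the gene score of SMC3 was −0.32 under RUX and −0.41 under DMSO. The part of the low day 0 reads in the scores of PDS5B, CTCF and SMC3 was not tested beyond these values and those given with each gene.

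**Figure D4:**
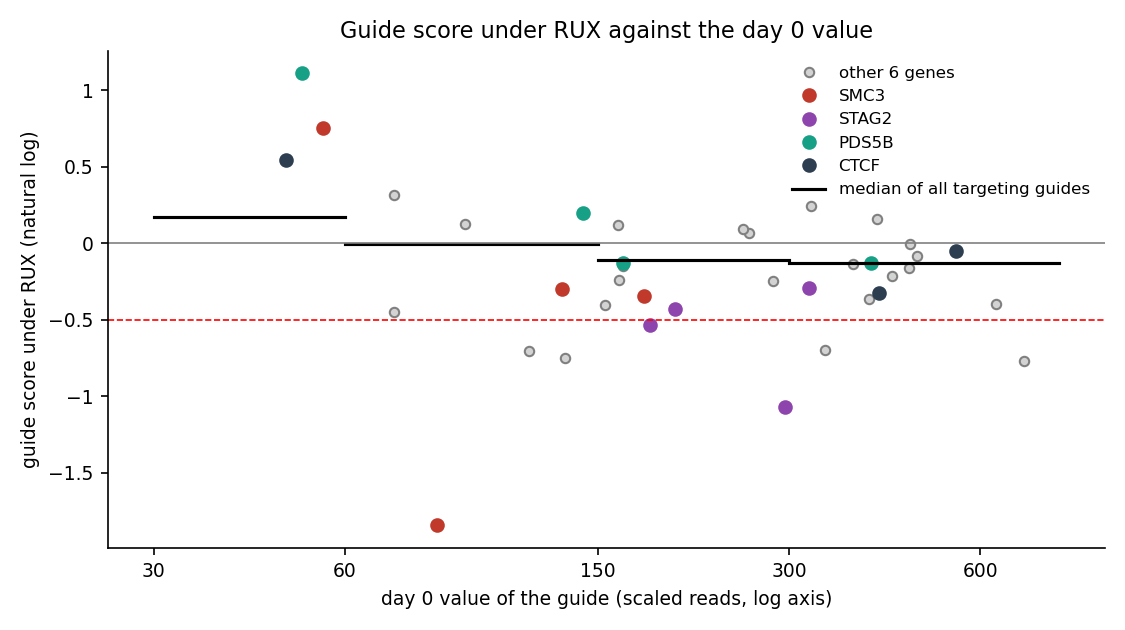
Guide score under RUX (y axis, natural log) against the day 0 value of the guide (x axis, scaled reads, log axis) for the 38 scored guides, with SMC3, STAG2, PDS5B and CTCF in colour; black lines are the medians of all targeting guides from 30 to 60, 60 to 150, 150 to 300 and 300 upwards. The 3 guides furthest to the left are above 0.5, while the 4 STAG2 guides sit between −1.07 and −0.29 at 180 to 320 reads.

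RUX was compared with DMSO directly, where the day 0 values of the genes cancel and the day 0 library enters through the choice of guides and the scaling to its control guides. None of the 10 genes passed limma's adjusted p, where 0.0419% of all genes passed, and 0 of the 10 had an unadjusted p under 0.05, where 9.09% of all genes had one. edgeR also passed 0, and DESeq2 passed 0 of the 6 genes to which it gave an adjusted p (none was given for SMC3, STAG2, NIPBL and PDS5A). The RUX and DMSO libraries overlapped for all 10 genes, while 4.65% of all genes had libraries that did not overlap. The lowest difference was that of NIPBL, −0.25 (95% interval −0.53 to 0.03, adjusted p = 0.58 from limma), and the highest that of CTCF, 0.19 (−0.02 to 0.40, adjusted p = 0.58 from limma). The CTCF difference was 0.06 with a day 0 value of at least 100 required, and 0.34 without the day 0 filter. PDS5A differed by −0.18 (−0.45 to 0.08), RAD21 by 0.17 (−0.08 to 0.42) and SMC1A by −0.11 (−0.29 to 0.08). STAG2 differed by −0.04 (−0.30 to 0.21), STAG1 by 0.05 (−0.17 to 0.27), MAU2 by −0.07 (−0.24 to 0.10), SMC3 by 0.03 (−0.31 to 0.37) and PDS5B by 0.01 (−0.23 to 0.24).

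**Figure D5:**
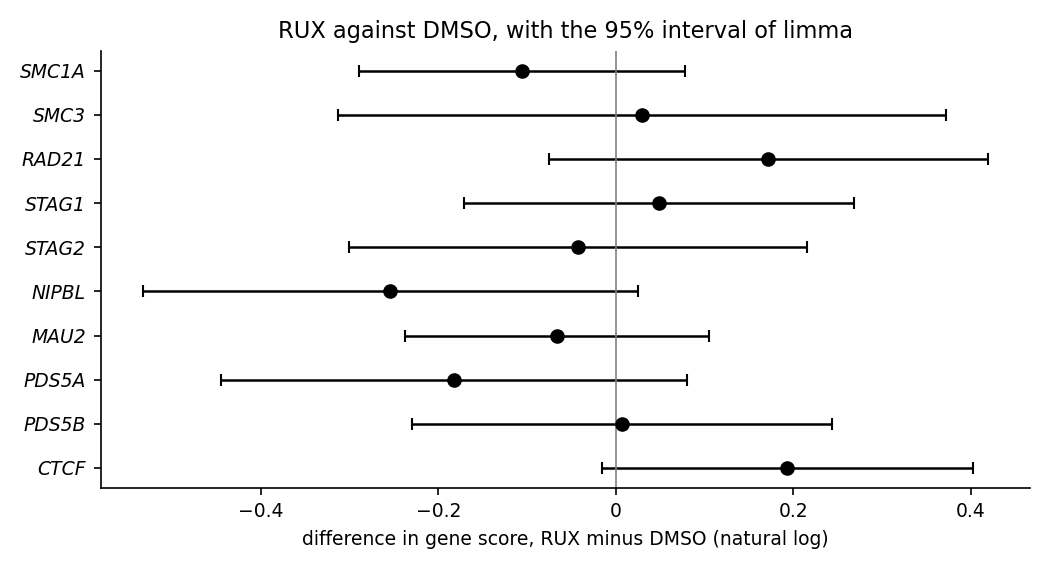
Difference in gene score, RUX minus DMSO (x axis, natural log), for the 10 genes (y axis); points are the limma estimates from 4 libraries per condition and bars their 95% intervals. All 10 intervals include 0, from NIPBL at −0.25 to CTCF at 0.19.

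Among the 38 guides, 0 passed limma's adjusted p between RUX and DMSO over all guides, where 0.00928% passed, and 1 had an unadjusted p under 0.05, where 8.73% of the guides did. This was the MAU2 guide sg_32646, with guide scores of −0.40 under DMSO and −0.77 under RUX. The SMC3 guide sg_23941 was the 1 guide whose libraries did not overlap, from −0.01 to 0.58 under DMSO and from 0.62 to 1.02 under RUX, and 4.61% of all targeting guides had libraries that did not overlap.

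Genes that work with cohesin or resemble it were scored in the same way, from 5 lists with 32 scored genes. Of 8 scored cohesin regulators, among them genes that release, acetylate, deacetylate or cleave the ring, 0 were below −0.5, with a median of −0.15 under RUX and −0.24 under DMSO. The lowest were PTTG1, the securin that restrains separase, at −0.30 under RUX, and DDX11, a helicase needed for cohesion, at −0.38 under DMSO. A list of meiotic cohesin subunits, SGOL2 and CTCFL held 6 genes, and 0 were below −0.5. The lowest were SGOL2 at −0.22 under RUX and REC8, the meiotic kleisin, at −0.26 under DMSO. The medians of this list, −0.08 in both conditions, were close to those of all genes.

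Condensin, the SMC complex that compacts mitotic chromosomes, had 1 of 8 subunits below −0.5 in each condition, the same gene, with list medians of −0.25 under RUX and −0.29 under DMSO. NCAPG2, a subunit of condensin II, scored −0.62, −0.53, −0.73 and −0.60 in the DMSO libraries and −1.01, −0.59, −0.87 and −1.19 in the RUX libraries. Its mean was −0.92 ± 0.26 under RUX (adjusted p = 0.019 from limma) and −0.62 ± 0.08 under DMSO (adjusted p = 0.24). It was the only gene of the 5 lists and the members to pass in any contrast, and 7 of 24 alternatives, among them the fit without RUX replicate 4 (adjusted p = 0.055 from limma) and the median over guides (0.16), ended its call. NCAPG2 did not differ between the conditions by the test (−0.30, adjusted p = 0.53 from limma). Of the 6 genes of the SMC5/6 complex, which acts in DNA repair, 1 was below −0.5 under RUX and 0 under DMSO. That gene, NDNL2 (NSMCE3, a subunit of its kleisin clamp), was the lowest of the list in both, at −0.58 and −0.50, and the list medians were −0.33 and −0.43. Of 4 factors found with CTCF at loop anchors, 2 were below −0.5 in each condition. They were YY1, a zinc finger factor of enhancer and promoter loops, at −0.73 under RUX and −0.61 under DMSO, and CHD8, a chromatin remodeler that binds CTCF, at −0.52 and −0.69 (adjusted p from 0.17 to 0.46 from limma), and ZNF143 and TOP2B were between −0.22 and −0.02.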

How the data were processed

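Per the deposited table and its labels, the authors counted guide reads with MAGeCK and normalized each library, so the unit is a signal per guide; dividing by 1 factor per library returned whole reads. Their control-guide and copy number corrected scores were not used here. Scores (R 4.3.3) took a pseudocount of 5, guides with 30 or more at day 0 and genes with 2 or more such guides, and libraries were scaled by the median ratio over non-targeting guides. limma 3.58.1 was fitted to the mean ln(value + 5) of all 19112 genes in 9 libraries, with 1 mean for each condition, without a block, and with an empirical Bayes trend of the variance on the mean, Benjamini-Hochberg adjustment over all genes and a threshold of 0.05. Guides were fitted likewise. edgeR 4.0.16 and DESeq2 1.42.0 took the recovered reads summed per gene. GENCODE 44 gave GRCh38 positions for 17949 symbols and 983 older symbols; 182 genes had none. The limma fit of genes was tested on simulated data, and the guide, edgeR and DESeq2 fits were not. The members, lists and tests were chosen with earlier results of these data known. The text names all members and, of each other list, genes passing limma and the lowest gene in each condition. ZNF143 and TOP2B are named besides, as the rest of their list. Single guides were named after their values were seen. Between replicates, a guide of 50 reads had a median coefficient of variation of 46.6% under DMSO and 44.4% under RUX.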

Additional observations from a re-analysis of the deposited data

Results flagged for a closer look

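Among 100 groups of 4 libraries examined, 1 per condition for each member gene, each scored guide and each paralog pair difference, 6 had a library far from the other 3. Chance gives about 5, and all 6 were single guides. SMC3 guide sg_23942 scored −0.045 in DMSO replicate 2 against −0.63 to −0.57 in the others. PDS5A guide sg_32208 scored −0.49 in DMSO replicate 3 against 0.06 to 0.14, and PDS5A guide sg_32209 scored −0.071 in DMSO replicate 4 against −0.47 to −0.41. SMC1A guide sg_21470 scored 0.036 in RUX replicate 2 against −0.36 to −0.30, and SMC1A guide sg_21472 scored −0.31 in RUX replicate 3 against 0.05 to 0.12. CTCF guide sg_28847 scored 0.97 in RUX replicate 3 against 0.39 to 0.42.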

How the results depend on the processing

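The number of members passing was 0 under the 24 alternatives run against day 0 and the 25 run between RUX and DMSO, which include the replicate block (also 0); DESeq2 gave no adjusted p between RUX and DMSO for 4 members, and 9 members could be scored with a day 0 value of at least 100. The replicate numbers did not pair the libraries (correlations of same-numbered libraries from −0.13 to 0.03). The number of members below −0.5 depended on the setting. Under RUX it was 0 with scaling over all guides, the farthest guide left out, the median of 20 neighbouring genes subtracted or a score below −1, and 2 with a pseudocount of 1. Under DMSO it was 0 with scaling over all guides, the values as deposited, a pseudocount of 20, the median over guides, the neighbours subtracted or a score below −1, and 2 with a pseudocount of 1. Leaving out 1 library gave 1 to 2 members under RUX (2 without RUX replicate 4) and 0 to 3 under DMSO (0 without DMSO replicate 1, 3 without DMSO replicate 2). PDS5B minus PDS5A was −0.28 with the farthest guide left out and −0.018 without sg_31572, both in the opposite direction, and 0.012 (exact p = 0.91) without the day 0 filter and 0.19 (exact p = 0.14) with neighbours subtracted; the cause was not tested beyond these guides. Leaving out 1 library gave 0.20 to 0.30 for that pair and −0.64 to −0.51 for STAG2 minus STAG1. STAG2 minus STAG1 kept its direction and its exact p under 0.05 in all 20 settings, but most of these could not end it. Scaling cancels, and the day 0 filters and the left-out PDS5B and SMC3 guides do not touch its guides. With every difference negative, leaving out 1 library gives the smallest possible exact p. The settings that could change it were the pseudocounts, the median over guides, the farthest guide left out and the neighbours subtracted. Of 727 single-member values under alternatives, 53 changed sign and 0 passed. Scaling over all guides moved the median of all genes by 0.12 under RUX and 0.11 under DMSO on the log2 scale. The number of all genes lower than day 0 was 78 to 394 with RUX (307 as reported) and 53 to 284 with DMSO (226 as reported), and the number differing between RUX and DMSO was 0 to 35 (8 as reported).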
